A study of Macaca mulatta with 27 samples.

Results

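The 10 genes described here are direct transcriptional targets of Wnt/beta-catenin signalling, namely AXIN2, NKD1, RNF43, ZNRF3, NOTUM, DKK1, LGR5, LEF1, TCF7, and SP5. They were chosen by name as widely used targets of the pathway, with earlier results of these data known. All 10 were found by symbol among the 17967 genes of the count tables. RNA was sequenced from 27 libraries of rhesus macaque ESCs, 6 of primed cells and 3 of cells grown under each of 7 protocols meant to bring primed cells to the naive state, the state of the early epiblast. The question was how the read-outs of the pathway differ between primed cells and each protocol, with the protocols ordered by what the study states about inhibition of GSK3.

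All cells came from 1 clonal line, LyonES-tGFP-(S3), which carries tauGFP under the ubiquitous CAG promoter and a lentiviral STAT3-ERT2, a STAT3 that tamoxifen activates. TL2i cells received tamoxifen, LIF, a MEK inhibitor, and a GSK3 beta inhibitor. TL-CDK8i cells also received tamoxifen, but CNIO-47799, an inhibitor of the kinases CDK8 and CDK19, took the place of both the MEK and the GSK3 beta inhibitor. t2iLGöY, LCDM (EPS), 4i/L/b, NHSM-v, and E-NHSM received no tamoxifen. The inhibitors in these 5 media are not listed in the sources used here, and these protocols are therefore given after the former pair, in no order of GSK3 inhibition. Primed cells were passaged mechanically as clumps and all reprogrammed cells as single cells, so that passaging and protocol cannot be told apart. Nothing in the labels says that the replicates were separate cultures, so p-values measure only the spread between these libraries, which may be technical.

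In the absence of a Wnt ligand, the kinases GSK3 and casein kinase 1 phosphorylate beta-catenin on a scaffold of AXIN and APC, and the protein is degraded. When a ligand engages Frizzled and LRP receptors, or when GSK3 is blocked by a compound, beta-catenin accumulates, enters the nucleus, and activates genes bound by factors of the TCF/LEF family. Many of the direct targets feed back on the pathway, and they are used as read-outs of its activity across tissues, including pluripotent cells, in which GSK3 inhibition is a common component of naive media.

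Sequencing depth lay between 7111886 and 20760914 counts (median 12201171). Levels are given in CPM, counts scaled to library size with TMM factors over the 27 libraries. A count of 3, the floor below which a level is not read here, corresponds to 0.138 to 0.422 CPM depending on the library. Floors cover counting error only, since reads without molecular identifiers are not independent molecules. The primed libraries carry the letters J and K with 3 libraries each, and the labels do not say what the letters stand for.

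The label of the samples, rhesus ESCs, was checked against 10 pluripotency markers. The summed level of these markers in primed cells was 7368 CPM in the lowest library, 7713 at the median, and 8561 in the highest, with the DNA methyltransferase gene DNMT3B as the most abundant gene. E-NHSM cells had sums of 7861, 8034, and 7957 CPM, and TL-CDK8i cells had 2591, 1993, and 2746 CPM. Sums were 571 to 652 CPM in TL2i, 447 to 480 CPM in LCDM (EPS), 218 to 236 CPM in t2iLGöY, 196 to 207 CPM in 4i/L/b, and 197 to 210 CPM in NHSM-v cells. POU5F1, which encodes the pluripotency factor OCT4, had a mean of 1185 CPM in primed, 1363 CPM in E-NHSM, and 498 CPM in TL-CDK8i cells, but of 6.43 CPM in TL2i, 3.09 CPM in LCDM (EPS), 1.17 CPM in t2iLGöY, 0.905 CPM in 4i/L/b, and 0.296 CPM in NHSM-v cells. NANOG was at or under the floor in all libraries of t2iLGöY, LCDM (EPS), 4i/L/b, and NHSM-v cells. PRDM14 was also at or under the floor in t2iLGöY, 4i/L/b, and NHSM-v cells, and TDGF1 in t2iLGöY and 4i/L/b cells. SOX2 was the most abundant marker of the list in the 4 groups with NANOG at the floor. Its mean ran from 75.1 CPM in 4i/L/b to 322 CPM in LCDM (EPS) cells. LIN28A was most abundant in TL2i cells, at 271 CPM. POU5F1 was thus low in 5 groups labelled as ESCs and NANOG at the floor in 4 of them, and the groups are called by their protocol names throughout. In bulk RNA, fewer cells of a type and less RNA per cell cannot be told apart.

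At least 6 targets were called higher than in primed cells under 6 of the 7 protocols, and E-NHSM cells had a single call. With 1 library left out the count fell to as few as 4 in t2iLGöY and 5 in LCDM (EPS) cells, and E-NHSM cells had 3 targets called higher with K primed libraries only, and 3 higher and 1 lower (SP5) with all 8 groups in one fit. A gene is called higher or lower when the adjusted p is below 0.05 in edgeR's quasi-likelihood test with Benjamini-Hochberg adjustment over all genes tested. In TL2i cells, 8 of the 10 targets were called higher and 0 lower, whereas 25.6% of the 13808 genes tested were called higher and 25.2% lower. In TL-CDK8i cells, 6 of 9 tested targets were called higher and 1 lower, against 22.3% and 23.8% of all genes. In t2iLGöY cells the counts were 6 higher and 0 lower of 10, against 27.1% and 27.2%. In LCDM (EPS) cells they were 6 higher and 1 lower of 8, against 28.2% and 28.9%. The 4i/L/b cells had 9 higher and 0 lower of 10, against 26.6% and 29%, and the NHSM-v cells 8 higher and 0 lower of 10, against 28% and 30.6%. In E-NHSM cells 1 of 6 tested targets was called higher and 0 lower, against 11.1% and 15.1%, a share close to that of all genes. Of all genes called in E-NHSM cells, 42.3% were higher, but 52.3% with upper-quartile normalization, so the balance of directions there depended on scaling. Where the count of lower targets was 0, it was also 0 at an unadjusted edgeR p below 0.05 and with DESeq2. It was 1, however, in TL2i, t2iLGöY, and 4i/L/b cells without Primed J3, with K primed libraries only, and with all 8 groups in one fit, and in NHSM-v cells with K primed libraries only.

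Of the 70 pairs of target and protocol, 44 were called higher, 2 lower, 17 were not called, and 7 were not tested because of low counts. The untested pairs were NOTUM in TL-CDK8i cells, SP5 and NOTUM in LCDM (EPS) cells, and LEF1, SP5, NOTUM, and DKK1 in E-NHSM cells. These 4 genes were close to 0 in primed cells and entered a test mainly through the protocol in which they were high, so that the counts and medians over tested targets are a description only. The median log2 fold change of the tested targets was 5.36 in TL2i, 3.04 in TL-CDK8i, and 0.48 in E-NHSM cells. It was 4.83 with the 4i/L/b medium, 4.49 with NHSM-v, 2.53 with t2iLGöY, and 2.53 with LCDM (EPS). Over all genes tested, the medians lay between -0.02 in NHSM-v and 0.07 in TL2i cells. The 7 comparisons share the 6 primed libraries, so their values are given side by side and are not independent of each other.

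**Figure D1:**
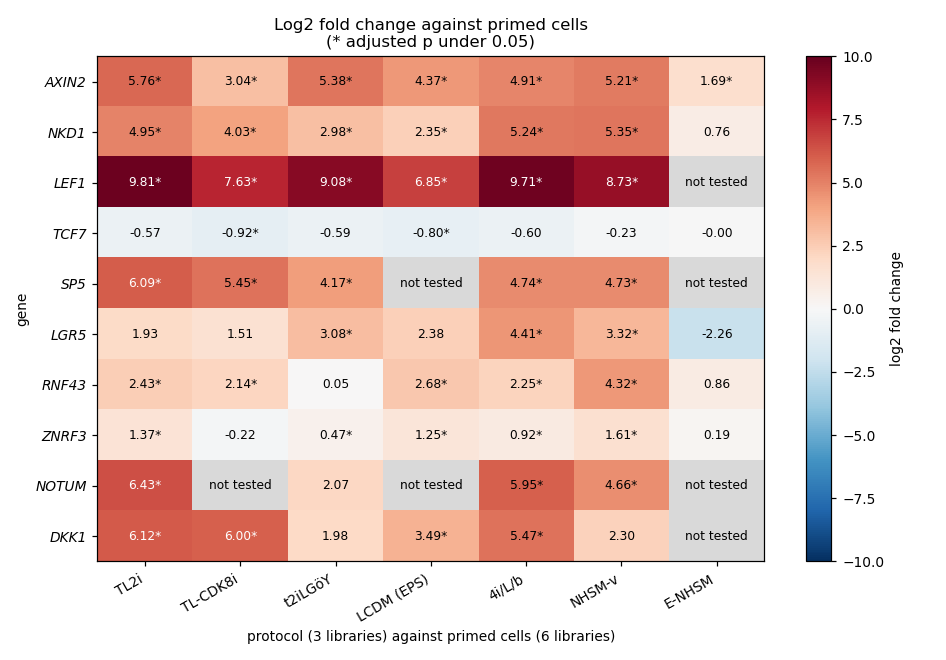
Log2 fold change of the 10 targets (rows) in each protocol (columns, 3 libraries each) against the 6 primed libraries, with an asterisk where the adjusted p is below 0.05 and grey where the gene was not tested. AXIN2 carries an asterisk in all 7 columns, from 1.69 in E-NHSM to 5.76 in TL2i, and TCF7 has no positive value.

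AXIN2, which encodes a scaffold of the beta-catenin destruction complex and is the target most often used as a general read-out, was called higher in all 7 protocols. Primed libraries held 4.36 CPM at the lowest, 6.83 at the median, and 10.6 at the highest. AXIN2 reached 394, 395, and 364 CPM in the TL2i libraries, the highest group. It was at 78.1, 53.0, and 48.8 CPM in TL-CDK8i cells. No library of either protocol overlapped the primed range.

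Among the protocols with no stated inhibitors, AXIN2 was at 288, 304, and 278 CPM in t2iLGöY and at 275, 263, and 278 CPM in NHSM-v cells. It was at 216, 214, and 233 CPM in 4i/L/b, at 140, 143, and 147 CPM in LCDM (EPS), and at 26.4, 22.1, and 19.7 CPM in E-NHSM cells. Every protocol library lay above every primed library. In the order of group means, TL2i, t2iLGöY, NHSM-v, 4i/L/b, LCDM (EPS), TL-CDK8i, E-NHSM, and primed cells, only the neighbours t2iLGöY and NHSM-v had overlapping libraries. Compared with primed cells, the log2 difference was 5.76 in TL2i (SE 0.16, edgeR adjusted p = 9.49e-12), 3.04 in TL-CDK8i (SE 0.23, adjusted p = 1.28e-07), and 1.69 in E-NHSM cells (SE 0.28, adjusted p = 0.000153). In t2iLGöY, NHSM-v, 4i/L/b, and LCDM (EPS) cells it was 5.38, 5.21, 4.91, and 4.37, with edgeR adjusted p-values from 2.34e-12 to 1.38e-10.

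NKD1, whose product binds Dishevelled and dampens Wnt signalling, was called higher in 6 protocols. Primed libraries ranged from 2.00 to 4.15 CPM, with a median of 2.54 CPM. NKD1 was at 85.5, 81.8, and 89.1 CPM in TL2i and at 45.0, 53.8, and 40.2 CPM in TL-CDK8i cells. It was at 107, 116, and 127 CPM in NHSM-v cells, the highest group, whose range overlapped only that of 4i/L/b at 101, 112, and 111 CPM. These 4 groups were clear of the primed range by a wide margin.

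Lower NKD1 levels were measured in t2iLGöY cells at 21.7, 21.1, and 21.3 CPM and in LCDM (EPS) cells at 11.6, 15.4, and 14.4 CPM, still above every primed library. The log2 fold change ranged from 2.35 in LCDM (EPS) (SE 0.36, edgeR adjusted p = 7.06e-05) to 5.35 in NHSM-v cells (SE 0.21, edgeR adjusted p = 2.28e-11). E-NHSM libraries held 5.96, 5.88, and 2.26 CPM and overlapped the primed range. The E-NHSM log2 fold change of 0.76 was not called (95% interval -0.48 to 2.01, edgeR adjusted p = 0.379) except with all 8 groups in one fit (edgeR adjusted p = 0.00868). AXIN2 and NKD1 thus had different orders of protocols, with t2iLGöY next to the top for AXIN2 and below TL-CDK8i for NKD1.

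**Figure D2:**
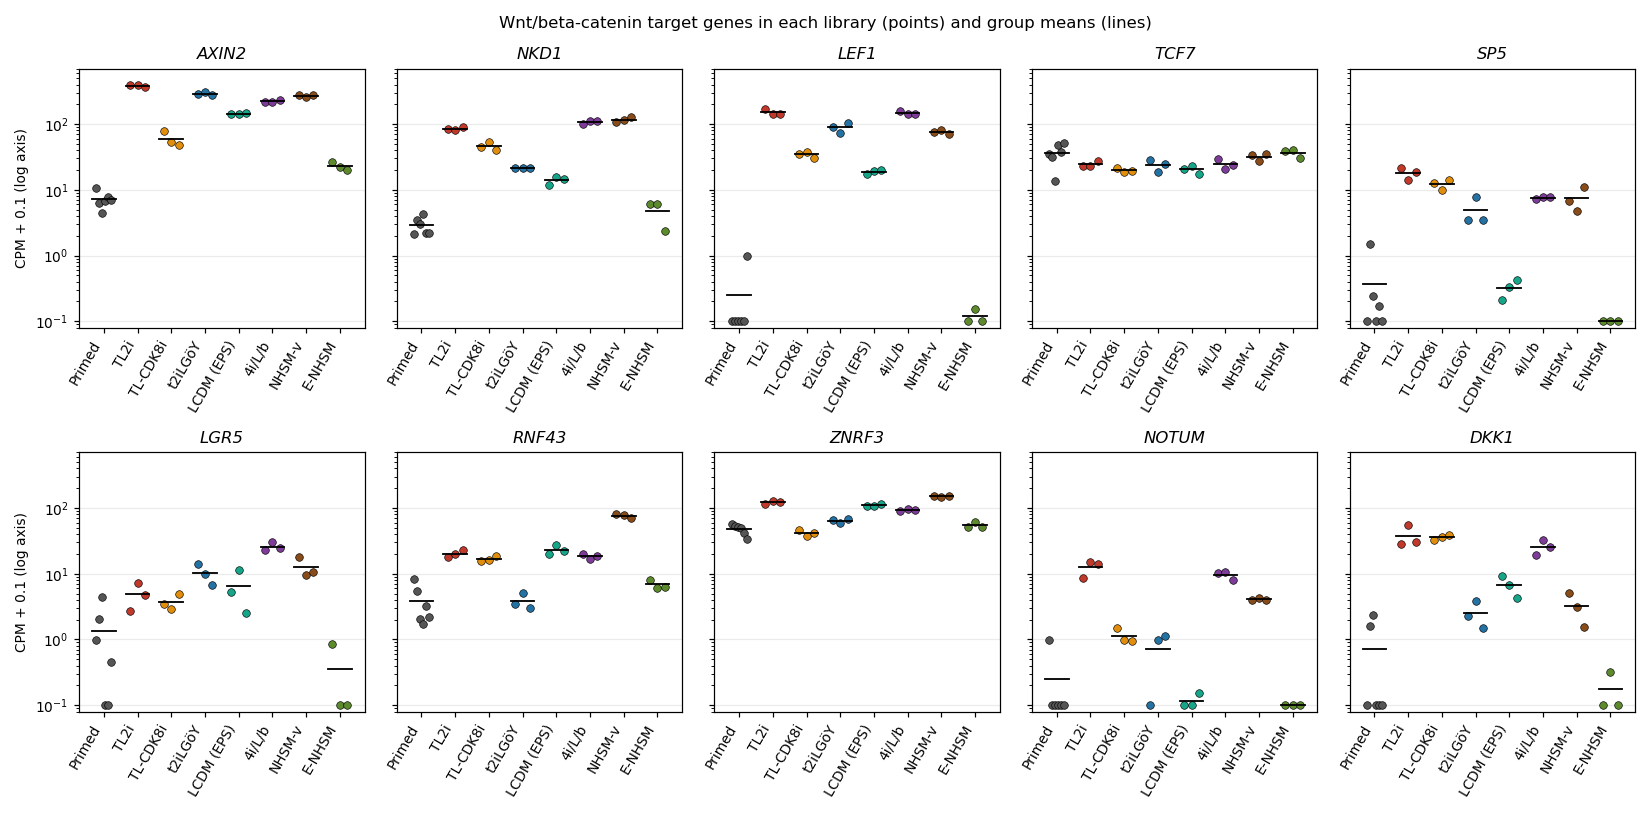
CPM plus 0.1 on a log axis for each of the 10 targets in the 27 libraries (points) and as group means (lines), with groups along the horizontal axis. AXIN2 lies between 4.36 and 10.6 CPM in primed libraries and between 364 and 395 CPM in TL2i libraries, while LEF1, SP5, and NOTUM lie at or under the floor in E-NHSM cells.

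RNF43 and ZNRF3 encode transmembrane ubiquitin ligases that remove Frizzled receptors from the cell surface. RNF43 ranged from 1.64 to 8.23 CPM in primed libraries, with a median of 2.59 CPM. NHSM-v cells were highest at 80.2, 79.3, and 69.6 CPM, a log2 fold change of 4.32 (SE 0.38, edgeR adjusted p = 1.24e-07). Group means of 23.2 CPM in LCDM (EPS), 20 CPM in TL2i, 18.4 CPM in 4i/L/b, and 16.9 CPM in TL-CDK8i cells followed, each group overlapping the next in this order and all libraries above the primed range. Their log2 fold changes were 2.68, 2.43, 2.25, and 2.14, all called higher.

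In t2iLGöY cells RNF43 stayed in the primed range at 3.40, 5.02, and 2.95 CPM, and the log2 fold change of 0.05 was not called (95% interval -1.39 to 1.5, edgeR adjusted p = 0.954). E-NHSM cells, at 8.03, 6.05, and 6.19 CPM, also overlapped the primed range, and the log2 fold change of 0.86 was not called (95% interval -0.30 to 2.01, edgeR adjusted p = 0.281), whereas it was called with K primed libraries only (1.59, edgeR adjusted p = 0.0218) and with all 8 groups in one fit (edgeR adjusted p = 0.0242). The sign of the t2iLGöY value turned with single libraries, at -0.08 without Primed J3, -0.11 without Primed K1, -0.01 without Primed K2, -0.11 without Primed K3, and -0.20 without t2iLGöY replicate 2.

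ZNRF3 was already well detected in primed cells, at 33.8 CPM in the lowest library, 49.8 at the median, and 57.1 in the highest. It was highest in NHSM-v cells at 151, 146, and 152 CPM, a log2 fold change of 1.61 (SE 0.15, edgeR adjusted p = 2.14e-07). TL2i libraries held 116, 129, and 125 CPM, and the log2 fold change was 1.37 (SE 0.15, edgeR adjusted p = 3.85e-06). TL-CDK8i libraries, at 46.9, 37.2, and 41.6 CPM, fell within the primed range, and the log2 fold change of -0.22 was not called (95% interval -0.59 to 0.15, edgeR adjusted p = 0.323).

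LCDM (EPS) and 4i/L/b cells, with ZNRF3 means of 110 and 93.1 CPM, were called higher with log2 fold changes of 1.25 and 0.92. In t2iLGöY cells ZNRF3 was at 66.1, 59.7, and 67.3 CPM, above each primed library, with a log2 fold change of 0.47 (SE 0.17, edgeR adjusted p = 0.0282). That call rested on few libraries. It was lost in edgeR with an adjusted p of 0.0643 without Primed K2, 0.0655 without Primed K3, 0.0866 without t2iLGöY replicate 1, 0.0917 without t2iLGöY replicate 3, and 0.148 with J primed libraries only, and over all alternatives it ranged from 0.0013 to 0.148. With J primed libraries only, ZNRF3 was called lower in TL-CDK8i cells (-0.39, edgeR adjusted p = 0.0473), and with K primed libraries only, higher in E-NHSM cells (0.41, edgeR adjusted p = 0.0486). E-NHSM cells, at 51.6, 60.3, and 50.5 CPM, overlapped the primed range, and the log2 fold change of 0.19 was not called (95% interval -0.16 to 0.53). ZNRF3 was lower in the K than in the J primed libraries with no overlap, at 33.8 to 49.1 CPM against 50.5 to 57.1 CPM.

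NOTUM encodes a secreted enzyme that inactivates Wnt ligands by removing their lipid. It had 0 counts in 5 primed libraries and 8 counts, 0.889 CPM, in Primed J1. The TL2i libraries held 8.64, 15, and 14 CPM, and the log2 fold change was 6.43 (SE 1.01, edgeR adjusted p = 0.000123). 4i/L/b cells, at 10.3, 10.7, and 7.83 CPM, and NHSM-v cells, at 3.90, 4.21, and 3.86 CPM, were also called higher, with log2 fold changes of 5.95 and 4.66. All libraries of these 3 groups lay above Primed J1.

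The size of the NOTUM fold rests on Primed J1. Without that library all primed counts were 0, and NOTUM was at least 42.3-fold higher in TL2i, at least 32.4-fold in 4i/L/b, and at least 13.4-fold in NHSM-v cells over a floor of 3 counts per library, bounds that were chosen after seeing the data. TL-CDK8i cells held 1.38, 0.877, and 0.856 CPM and overlapped Primed J1, and NOTUM was called higher there with all 8 groups in one fit (2.86, edgeR adjusted p = 0.0161). In t2iLGöY cells, at 0, 0.871, and 1.01 CPM, NOTUM was not called (log2 fold change 2.07, 95% interval -1.68 to 5.83, edgeR adjusted p = 0.339). LCDM (EPS) and E-NHSM cells were at or under the floor in all libraries, so that a difference from primed cells was not detectable at this depth.

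DKK1 encodes a secreted antagonist that binds the LRP co-receptors. It had 0 counts in 4 primed libraries, 1.5 CPM in Primed J2, and 2.25 CPM in Primed J3. TL2i libraries held 27.9, 54.8, and 29.8 CPM and TL-CDK8i libraries 32.8, 35.9, and 38.8 CPM, ranges that overlap each other and lie above the primed range. The log2 fold change was 6.12 in TL2i (SE 0.85, edgeR adjusted p = 4.46e-05) and 6 in TL-CDK8i cells (SE 0.85, edgeR adjusted p = 4.84e-05). With all libraries, DKK1 was the feedback gene for which the 2 tamoxifen protocols lay closest together, at -0.08 in TL-CDK8i against TL2i cells. Without TL2i replicate 2 this value was 0.33, against 0.05 for LGR5, so the ranking rests on that library.

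In 4i/L/b cells DKK1 was at 19.5, 32.2, and 25.2 CPM, a log2 fold change of 5.47 (SE 0.96, edgeR adjusted p = 0.00026). LCDM (EPS) libraries held 9.12, 6.65, and 4.15 CPM, above the primed range, with a log2 fold change of 3.49 (SE 1.28, edgeR adjusted p = 0.031). That call was lost in edgeR without LCDM (EPS) replicate 1 (adjusted p = 0.121), replicate 2 (adjusted p = 0.0758), or replicate 3 (adjusted p = 0.053), with J primed libraries only (2.46, adjusted p = 0.052), and in DESeq2 (adjusted p = 0.17), within a range of 1.56e-05 to 0.17 over all alternatives. NHSM-v and t2iLGöY cells, with means of 3.14 and 2.41 CPM, overlapped the primed range and were not called, at log2 fold changes of 2.30 (95% interval -0.76 to 5.36) and 1.98 (95% interval -1.26 to 5.22). The NHSM-v value was called without Primed J3 (3.36, edgeR adjusted p = 0.0486). With all 8 groups in one fit, DKK1 was called higher in both NHSM-v (edgeR adjusted p = 0.00328) and t2iLGöY cells (edgeR adjusted p = 0.00877), as it was against K primed libraries only, all of which had 0 counts. E-NHSM libraries held 0, 4, and 0 counts.

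The primed level of DKK1 came from Primed J2 and Primed J3 alone, and the folds grew when either was left out. Without Primed J3 the log2 fold change was 7.12 in TL2i, 7 in TL-CDK8i, 6.51 in 4i/L/b, and 4.56 in LCDM (EPS) cells. Without Primed J2 it was 6.79 in TL2i, 6.66 in TL-CDK8i, and 6.15 in 4i/L/b cells.

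LGR5, which encodes a receptor for R-spondins and marks Wnt-dependent stem cells in several epithelia, was called higher in 3 protocols. Primed libraries ranged from 0 to 4.36 CPM, with a median of 0.624 CPM and all J libraries above all K libraries. LGR5 was highest in 4i/L/b cells at 23.1, 30.1, and 24.2 CPM, a log2 fold change of 4.41 (SE 0.86, edgeR adjusted p = 0.000651). NHSM-v cells were at 18.1, 9.36, and 10.4 CPM (log2 fold change 3.32, SE 1.00, edgeR adjusted p = 0.00987), and t2iLGöY cells at 14.1, 9.71, and 6.70 CPM (log2 fold change 3.08, SE 1.05, edgeR adjusted p = 0.0224). All libraries of these 3 groups lay above the primed range.

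The NHSM-v call of LGR5 was lost in edgeR without NHSM-v replicate 1 (adjusted p = 0.0602, over all alternatives 4.27e-06 to 0.0602). The t2iLGöY call was lost in edgeR without replicate 1 (adjusted p = 0.0994) or replicate 2 (adjusted p = 0.0548), within a range of 0.000124 to 0.0994. Without Primed J3, the primed library with the most LGR5, the log2 fold change was 5.42 in 4i/L/b, 4.32 in NHSM-v, and 4.06 in t2iLGöY cells, and LGR5 was then also called in TL2i (2.93, edgeR adjusted p = 0.032) and LCDM (EPS) cells (3.38, edgeR adjusted p = 0.0134). With all primed libraries, these values were 1.93 in TL2i (95% interval -0.55 to 4.41) and 2.38 in LCDM (EPS) cells (95% interval -0.06 to 4.82), neither called. TL-CDK8i and E-NHSM cells, with means of 3.65 and 0.25 CPM, overlapped the primed range and were not called. Against K primed libraries only, LGR5 was called higher in TL-CDK8i (4.87, edgeR adjusted p = 0.0031), TL2i (5.31), and LCDM (EPS) cells (5.77). Primed K1, K2, and K3 held 0, 0, and 4 counts of LGR5, so the size of these folds rests on values near the floor. With all 8 groups in one fit, LGR5 was called in TL2i (2.04, edgeR adjusted p = 0.0233) and LCDM (EPS) cells (2.49, edgeR adjusted p = 0.0051).

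LEF1, TCF7, and SP5 are the transcription factors among the targets. LEF1 encodes a DNA-binding partner of beta-catenin. It had 0 counts in 5 primed libraries and 10 counts, 0.898 CPM, in Primed K3. TL2i libraries held 171, 143, and 143 CPM, and TL-CDK8i libraries 35.2, 37.7, and 30.9 CPM. LEF1 was at 158, 144, and 144 CPM in 4i/L/b, at 91.5, 73.7, and 105 CPM in t2iLGöY, at 74.9, 81.3, and 70.5 CPM in NHSM-v, and at 17.6, 19.3, and 19.7 CPM in LCDM (EPS) cells. All libraries of these 6 groups were above Primed K3 by more than an order of magnitude.

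Fitted with all primed libraries, the LEF1 log2 fold change was 9.81 in TL2i (SE 0.46, edgeR adjusted p = 8.58e-10), 7.63 in TL-CDK8i (SE 0.72, edgeR adjusted p = 1.04e-06), and 6.85 in LCDM (EPS) cells (SE 0.88, edgeR adjusted p = 1.32e-05). Its size rests on Primed K3. Without that library, over a floor of 3 counts per primed library, LEF1 was at least 491-fold higher in TL2i, 112-fold in TL-CDK8i, 481-fold in 4i/L/b, 291-fold in t2iLGöY, 244-fold in NHSM-v, and 60.8-fold in LCDM (EPS) cells, bounds also chosen after seeing the data. E-NHSM libraries held 0, 1, and 0 counts of LEF1. The gene was therefore present in 6 protocols and at or under the floor in E-NHSM cells and 5 of the 6 primed libraries.

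TCF7, a relative of LEF1 that also pairs with beta-catenin, showed no call in the upward direction. Primed libraries ranged from 13.5 CPM in Primed J3 to 52.2 CPM in Primed K3, with a median of 36.7 CPM. TL-CDK8i libraries held 21.5, 18.5, and 18.9 CPM and LCDM (EPS) libraries 20.7, 22.8, and 17.4 CPM, within the primed range because of Primed J3 but below the other 5 primed libraries. The log2 fold change was -0.92 in TL-CDK8i (SE 0.31, edgeR adjusted p = 0.0228) and -0.80 in LCDM (EPS) cells (SE 0.31, edgeR adjusted p = 0.0381), both called lower. TCF7 had its highest mean in primed cells with TMM scaling, 36.4 CPM, and in E-NHSM cells with total-count or upper-quartile scaling.

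These TCF7 calls depended on single libraries. The TL-CDK8i call was lost in edgeR without Primed K3 (adjusted p = 0.0534) and without TL-CDK8i replicate 1 (adjusted p = 0.0591), replicate 2 (adjusted p = 0.0818), or replicate 3 (adjusted p = 0.0842), and with J primed libraries only (-0.48, adjusted p = 0.245), within a range of 7.73e-05 to 0.245 over all alternatives. The LCDM (EPS) call was lost in edgeR when any of Primed J1, K1, K2, or K3 or any LCDM (EPS) replicate was left out, with adjusted p-values from 0.0547 to 0.146, and with J primed libraries only (-0.36, adjusted p = 0.365). With K primed libraries only, TCF7 was called lower in 6 protocols, all but E-NHSM, and with all 8 groups in one fit in 5, all but NHSM-v and E-NHSM. Without Primed J3, in turn, TCF7 was called lower in TL2i (-0.74, edgeR adjusted p = 0.00337), t2iLGöY (-0.77, edgeR adjusted p = 0.00615), and 4i/L/b cells (-0.74, edgeR adjusted p = 0.00467). With all libraries, the 95% intervals of these 3 protocols were -1.21 to 0.07, -1.26 to 0.08, and -1.27 to 0.06. NHSM-v and E-NHSM cells had log2 fold changes of -0.23 (95% interval -0.86 to 0.40) and 0.00 to 2 decimals (95% interval -0.57 to 0.57), not called. The K primed libraries were above the J primed libraries with no overlap, at 38.1 to 52.2 CPM against 13.5 to 35.2 CPM.

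SP5 encodes a zinc-finger repressor that acts on genes of the Wnt response. Primed libraries held 0 or 1 counts except Primed J2, with 13 counts or 1.40 CPM. TL2i cells were highest at 21.0, 14.2, and 18.3 CPM, followed by TL-CDK8i cells at 12.4, 9.76, and 13.9 CPM, without overlap between the pair. SP5 was at 7.24, 7.75, and 7.54 CPM in 4i/L/b, at 6.66, 4.63, and 11 CPM in NHSM-v, and at 3.40, 7.77, and 3.31 CPM in t2iLGöY cells. These 5 groups lay above every primed library, whereas LCDM (EPS) libraries held 2, 5, and 6 counts and E-NHSM libraries 0. With all 8 groups in one fit, SP5 was called lower in E-NHSM cells (-4.79, edgeR adjusted p = 0.016), where 13 of the 15 primed counts came from Primed J2.

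The SP5 log2 fold change was 6.09 in TL2i (SE 0.88, edgeR adjusted p = 6.29e-05), 5.45 in TL-CDK8i (SE 1.00, edgeR adjusted p = 0.000447), and 4.17 in t2iLGöY cells (SE 1.29, edgeR adjusted p = 0.0131). In 4i/L/b and NHSM-v cells it was 4.74 and 4.73, both called higher. Without Primed J2 the fitted values were 8.56 in TL2i, 7.88 in TL-CDK8i, 7.22 in 4i/L/b, 7.21 in NHSM-v, and 6.65 in t2iLGöY cells, but primed cells were then at the floor and these values depend on the prior count. The t2iLGöY call was lost in edgeR without t2iLGöY replicate 2 (adjusted p = 0.0775) and with J primed libraries only (3.20, adjusted p = 0.0534), within a range of 4.73e-06 to 0.0775 over all alternatives.

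TL2i and TL-CDK8i are the pair for which the study states that one contains a GSK3 beta inhibitor and the other does not. Because the MEK inhibitor was exchanged in the same step, and a CDK8/19 inhibitor was added, the effects of the 3 compounds cannot be told apart. In TL-CDK8i against TL2i cells, 6 of 10 targets were called lower and 0 higher, whereas 33.3% of the 13729 genes tested were called lower and 31.5% higher. The count of higher targets was also 0 at an unadjusted edgeR p below 0.05 and with DESeq2. The median log2 fold change of the targets was -0.75, against -0.04 over all genes. Cell type markers differed in the same comparison, and their part was not tested. Of pluripotency markers 9 of 10 and of streak and mesoderm markers 5 of 7 were called higher in TL-CDK8i cells, whereas 7 of 9 neural, 6 of 8 neural crest, and 5 of 6 endoderm markers were called lower.

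The called targets were AXIN2 (-2.70, SE 0.15, edgeR adjusted p = 3.53e-09), NKD1 (-0.90, SE 0.11, edgeR adjusted p = 1.05e-05), LEF1 (-2.16, SE 0.11, edgeR adjusted p = 2.24e-09), ZNRF3 (-1.58, SE 0.11, edgeR adjusted p = 2.91e-08), NOTUM (-3.61, SE 0.33, edgeR adjusted p = 5.03e-07), and SP5 (-0.59, SE 0.19, edgeR adjusted p = 0.0154). For each of these 6 genes all TL-CDK8i libraries lay below all TL2i libraries. The SP5 call was lost in edgeR without TL2i replicate 1 (adjusted p = 0.0939), TL2i replicate 3 (adjusted p = 0.0536), or TL-CDK8i replicate 2 (adjusted p = 0.0706), and with all 8 groups in one fit (adjusted p = 0.523), within a range of 0.00643 to 0.523. The remaining calls held when any library was left out.

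The other 4 targets were not called. TCF7 had a log2 fold change of -0.33 (95% interval -0.63 to -0.03, edgeR adjusted p = 0.0505) with no overlap of libraries, and it was called without TL-CDK8i replicate 1 (-0.40, edgeR adjusted p = 0.0335) and with upper-quartile normalization (-0.38, edgeR adjusted p = 0.0279). LGR5 was at -0.38 (95% interval -1.18 to 0.41), RNF43 at -0.26 (95% interval -0.59 to 0.07), and DKK1 at -0.08 (95% interval -0.53 to 0.36), with overlapping libraries. Without TL2i replicate 2 the signs of LGR5 (0.05) and DKK1 (0.33) turned, both uncalled. These intervals bound the RNF43 and DKK1 differences more tightly than the one of LGR5, and none shows that the levels were equal.

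**Figure D3:**
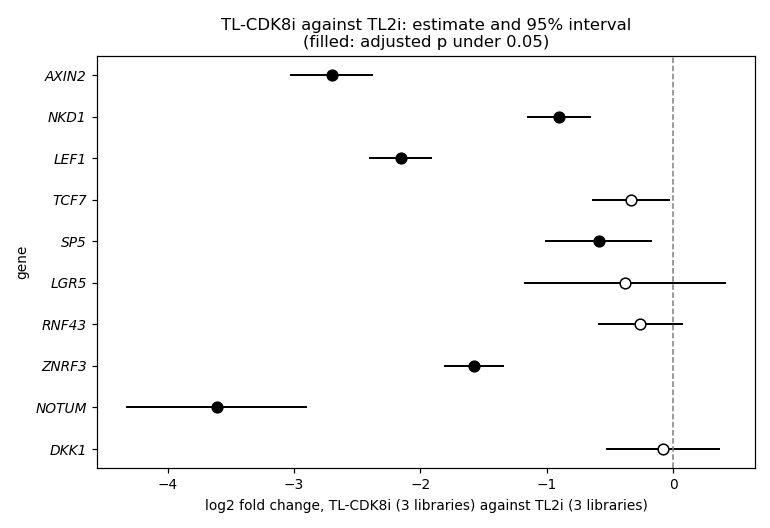
Log2 fold change of each target in TL-CDK8i (3 libraries) against TL2i cells (3 libraries), with the 95% interval as a line and filled points where the adjusted p is below 0.05. The 6 filled points run from -3.61 for NOTUM to -0.59 for SP5, and the intervals of LGR5, RNF43, and DKK1 include 0.

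Summed over the 10 targets, primed libraries ranged from 80.1 to 115 CPM with a median of 102 CPM. The sum was 867, 882, and 838 CPM in TL2i libraries and 292, 266, and 258 CPM in TL-CDK8i libraries. It was at 755, 735, and 759 CPM in NHSM-v, 676, 684, and 689 CPM in 4i/L/b, 519, 505, and 511 CPM in t2iLGöY, and 331, 353, and 344 CPM in LCDM (EPS) libraries. E-NHSM libraries, at 131, 134, and 109 CPM, overlapped the primed range. The sum adds genes of unlike level and is given as a description only.

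The targets did not share a single order of protocols. AXIN2, LEF1, SP5, NOTUM, and DKK1 had their highest mean in TL2i cells, NKD1, RNF43, and ZNRF3 in NHSM-v cells, and LGR5 in 4i/L/b cells, under TMM, total-count, and upper-quartile scaling alike. For LEF1, NOTUM, and DKK1, however, the TL2i range overlapped that of the next group, 4i/L/b for LEF1 and NOTUM and TL-CDK8i for DKK1. For NKD1 the top group overlapped 4i/L/b cells. The top group was clear of the next for AXIN2, SP5, RNF43, ZNRF3, and LGR5.

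Among 14751 other genes with enough counts, those whose group means of log2 CPM were most like those of AXIN2, by Pearson's r over the 8 groups, were ZNF516, CCDC157, AMOT, GLI3, ENTPD5, TTLL3, FAM188B, CCDC127, LPCAT2, and RIT2, with r from 0.971 to 0.994. These correlations are descriptive, over 8 groups that differ in much else, and carry no test. ZNF516 had means of 22.3 CPM in primed and 101 CPM in TL2i cells, and GLI3, a transcription factor of the Hedgehog pathway, had 35 and 428 CPM. The list itself is unstable, since 3 of the 10 genes were shared with the list by Spearman's rho and 3 with the list over 27 libraries. Of the other targets LEF1 was most like AXIN2 (r = 0.928, rank 129 of 14751), followed by NKD1 (r = 0.835) and LGR5 (r = 0.830), and TCF7 ran the other way (r = -0.527).

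Further Wnt genes were described from 3 lists, 24 other targets, 24 genes of the transduction core, and 47 ligands, receptors, and secreted regulators. Their counts are to be read against the shares of all genes given above for the 10 targets, and no list was tested against those shares. In TL2i cells, for instance, 25% of the other targets were called lower, against 25.2% of all genes. Of the other targets, 11 of 20 tested were called higher and 5 lower in TL2i, 9 and 3 of 19 in TL-CDK8i, 10 and 6 of 18 in t2iLGöY, 7 and 6 of 17 in LCDM (EPS), 10 and 6 of 17 in both 4i/L/b and NHSM-v, and 1 and 6 of 17 in E-NHSM cells. Among genes tested in all 7 comparisons with primed cells, to which all medians of these lists refer, CD44, a cell-surface glycoprotein, had the highest median log2 fold change of the other targets, 2.38, and rose from a mean of 24.1 CPM in primed to 620 CPM in NHSM-v cells. SOX9 (median 2.33) and ID2 (median 1.93), both transcriptional regulators, were each called higher in 6 protocols. MYC (-6.25 to -1.17) and the receptor gene FZD7 (-4.21 to -0.80) were called lower in all 7. The other targets included genes called in each direction in every protocol, as did all genes tested. Their shares called lower ran from 15.8% in TL-CDK8i to 35.3% in LCDM (EPS), 4i/L/b, NHSM-v, and E-NHSM cells. All genes had 23.8%, 28.9%, 29%, 30.6%, and 15.1% in the same order. Shares called higher ran from 5.88% in E-NHSM to 58.8% in 4i/L/b and NHSM-v cells, against 11.1%, 26.6%, and 28% of all genes. WIF1, a secreted Wnt inhibitor, and MIXL1, a primitive streak factor, had the lowest medians beside MYC, at -2.04 and -2.82. WIF1 was nevertheless called higher in TL-CDK8i cells (3.37), with a mean of 78.2 CPM against 7.45 CPM in primed and 7.34 CPM in TL2i cells. ASCL2 was at or under the floor in all 27 libraries.

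In the transduction core, all 24 genes were tested, and 10 were called higher and 4 lower in TL2i, 8 and 6 in TL-CDK8i, 14 and 4 in t2iLGöY, 12 and 4 in LCDM (EPS), 12 and 3 in NHSM-v, 9 and 6 in 4i/L/b, and 2 and 6 in E-NHSM cells. CTNNB1, which encodes beta-catenin itself and is named here after its values were seen, had a mean of 792 CPM in primed and 798 CPM in TL2i cells, and the log2 fold change of 0.01 was not called. It was called lower in E-NHSM cells (mean 313 CPM, log2 fold change -1.34) and higher in TL-CDK8i (mean 1382 CPM, 0.77), 4i/L/b (mean 1337 CPM, 0.71), NHSM-v (mean 1192 CPM, 0.54), and t2iLGöY cells (mean 1119 CPM, 0.53). The mRNA level of CTNNB1 is not the level of its protein, which is controlled by degradation. APC2, a relative of APC, had the highest median, 5.06, ahead of PYGO1 (2.72), a nuclear cofactor of beta-catenin, and CTNNBIP1 (0.75), an inhibitor of the beta-catenin and TCF interaction, each called higher in 6 protocols. TCF7L1, a TCF factor that acts mainly as a repressor in pluripotent cells, was called lower in 6 protocols and fell from a mean of 292 CPM in primed to 57.2 CPM in TL2i and 45.1 CPM in 4i/L/b cells. TCF7L2 was called lower in 5 and the corepressor gene TLE2 in 3 protocols, with medians of -0.65 and -2.30.

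Of the ligands, receptors, and secreted regulators, 23 of 39 tested were called higher and 9 lower in TL2i, 17 and 5 of 37 in TL-CDK8i, 22 and 9 of 41 in t2iLGöY, 17 and 9 of 38 in LCDM (EPS), 23 and 8 of 38 in 4i/L/b, 20 and 4 of 37 in NHSM-v, and 3 and 9 of 31 in E-NHSM cells. RSPO3, an R-spondin that stabilises Frizzled receptors through LGR proteins, WNT9A, a ligand, and WLS, which carries Wnt ligands to the cell surface, were each called higher in 6 protocols, with medians of 5.33, 5.21, and 4.27. WLS reached 1249 CPM in t2iLGöY and 428 CPM in TL2i against 23.1 CPM in primed cells. In E-NHSM cells, WLS was called lower, with a log2 fold change of -1.34. The Frizzled antagonist SFRP1 was called lower in all 7 protocols, from -7.74 in NHSM-v to -1.45, as was WNT8A, a ligand of the early embryo. The receptor gene FZD5 had a median of -3.84 from a primed mean of 309 CPM and was called lower in 6 protocols. Against TL2i, TL-CDK8i cells had 15 higher (34.9%) and 16 lower (37.2%) of 43 ligands and regulators, close to the 31.5% and 33.3% of all genes, 4 higher and 10 lower of 24 core genes, and 8 higher and 11 lower of 21 other targets. AXIN2, LEF1, NKD1, WLS, RSPO3, WNT9A, and APC2 also belong to a gene list that the study drew from these libraries, so that list is not independent evidence of their direction.

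**Figure D4:**
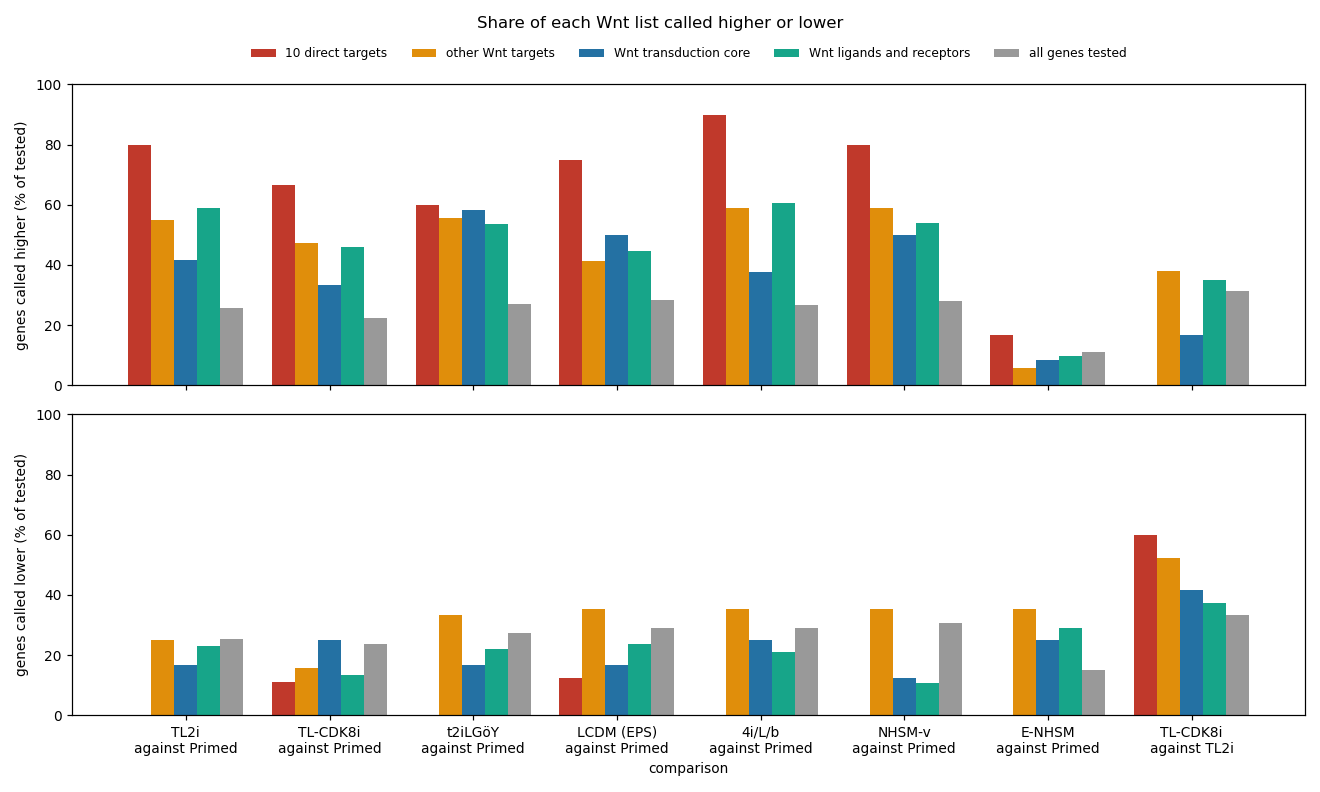
Share of tested genes called higher (upper panel) and lower (lower panel), in percent, for the 10 direct targets, the 3 further Wnt lists, and all genes tested, in each of the 8 comparisons on the horizontal axis. The direct targets reach 80% called higher in TL2i against 25.6% of all genes, and 60% called lower in TL-CDK8i against TL2i, where 33.3% of all genes were called lower.

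Markers of several cell types differed between the groups, some upward and some downward, and their part in the results was not tested. Counts of called markers are to be read against the shares of all genes given above for the 10 targets, and no marker list was tested against those shares. All 10 pluripotency markers were called lower in TL2i, TL-CDK8i, t2iLGöY, 4i/L/b, and NHSM-v, and 9 of 10 in LCDM (EPS) cells, the protocols with 6 or more targets called higher. In E-NHSM cells 4 were called higher and 3 lower. Of the neural markers, 7 of 9 tested were called higher in TL2i, 3 of 7 in TL-CDK8i, 9 of 10 in t2iLGöY, 10 of 10 in LCDM (EPS), 7 of 9 in 4i/L/b, 9 of 10 in NHSM-v, and 1 of 6 in E-NHSM cells. Neural markers called lower numbered 2 in E-NHSM and 1 in each of TL-CDK8i, t2iLGöY, and NHSM-v cells. Their sum was 2392 to 2650 CPM in primed, 6546 to 6829 CPM in LCDM (EPS), 2060 to 2169 CPM in TL-CDK8i, and 1314 to 1461 CPM in E-NHSM cells, with the progenitor gene NES most abundant in all groups. Neural sums also lay above the primed range in TL2i (2831 to 2989 CPM), t2iLGöY (4091 to 4512 CPM), 4i/L/b (3127 to 3329 CPM), and NHSM-v cells (3131 to 3190 CPM). SOX1, which was at or under the floor in primed cells, reached a mean of 189 CPM in LCDM (EPS) and 12.5 CPM in TL2i cells.

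Neural crest markers were called higher in 7 of 8 tested in TL2i, 6 of 7 in TL-CDK8i, 6 of 8 in t2iLGöY, 3 of 8 in LCDM (EPS), 6 of 8 in 4i/L/b, 4 of 7 in NHSM-v, and 2 of 6 in E-NHSM cells. Of the same markers, 3 were called lower in LCDM (EPS), 0 in TL2i, and 1 in each other protocol. Their sum was 117 to 187 CPM in primed, 567 to 764 CPM in TL2i, and 784 to 1170 CPM in t2iLGöY cells. Crest sums were also above the primed range in 4i/L/b (688 to 700 CPM) and LCDM (EPS) cells (522 to 561 CPM). The same held in NHSM-v (413 to 442 CPM) and TL-CDK8i cells (308 to 374 CPM), whereas E-NHSM cells (176 to 187 CPM) overlapped the primed range. ETS1 was the most abundant gene in primed and TL2i cells. SOX10, a defining crest marker, had means of 1.51 CPM in primed, 126 CPM in TL2i, and 178 CPM in t2iLGöY cells, but of 0.489 CPM in NHSM-v and 0.407 CPM in E-NHSM cells. Fibroblast markers were called higher in 8 of 10 in TL2i, 7 of 10 in TL-CDK8i, 3 of 8 in t2iLGöY, 2 of 10 in LCDM (EPS), 9 of 10 in 4i/L/b, and 7 of 10 in NHSM-v cells, and 0 of 8 in E-NHSM cells. Fibroblast markers called lower numbered 1, 0, 2, 4, 1, 0, and 5 in the same order of protocols. Their sum was 1166 to 2380 CPM in primed, 769 to 991 CPM in LCDM (EPS), and 406 to 452 CPM in E-NHSM cells. Fibroblast sums were above the primed range in the other 5 protocols, at 2964 to 5797 CPM in TL2i, 3443 to 4028 CPM in t2iLGöY, 8026 to 8602 CPM in NHSM-v, 8591 to 11121 CPM in TL-CDK8i, and 11711 to 15336 CPM in 4i/L/b cells. The collagen gene COL1A1, the most abundant of them in all groups but E-NHSM, had means of 1290 CPM in primed, 7305 CPM in TL-CDK8i, and 9296 CPM in 4i/L/b cells.

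Primitive streak and mesoderm markers, which include the Wnt-responsive genes T, also known as TBXT, and MIXL1, summed to 16.7 to 38.9 CPM in primed and to 62.0 to 118 CPM in TL-CDK8i cells, with EOMES most abundant in the latter. In the other 6 protocols, the sums lay between 5.98 and 21.9 CPM. The primed sums were split by letter, at 31.7 to 38.9 CPM in the J and 16.7 to 18.5 CPM in the K libraries. LGR5 was likewise higher in the J than in the K primed libraries with no overlap. MSGN1 was at or under the floor in all libraries. Endoderm markers summed to 2.54 to 74.1 CPM in primed, 54.2 to 92.2 CPM in TL2i, and 51.3 to 93.7 CPM in TL-CDK8i cells, and 4 of 6 were called higher in TL2i and 2 of 6 in TL-CDK8i cells. In t2iLGöY and NHSM-v cells, 2 of 3 and 2 of 4 were called lower, and in LCDM (EPS), 4i/L/b, and E-NHSM cells none was called. The primed endoderm sums were split by letter, at 18.7, 56.9, and 74.1 CPM in Primed J1, J2, and J3 and at 2.54 to 3.03 CPM in the K libraries, and Primed J2 and J3, the primed libraries with DKK1, lay within the TL2i and TL-CDK8i range. CER1 was their most abundant gene in primed cells and SOX17 in TL2i cells. Trophoblast markers summed to 3.66 to 14.6 CPM in primed and to 170 to 186 CPM in LCDM (EPS) cells. The sums were 146 to 231 CPM in TL-CDK8i, 109 to 162 CPM in t2iLGöY, and 96.5 to 103 CPM in TL2i cells. TFAP2A or KRT7 was the most abundant gene in each group and made up most of these raised sums. Of mean sums of 178, 136, and 99.5 CPM in LCDM (EPS), t2iLGöY, and TL2i cells, TFAP2A held 177, 134, and 82.0 CPM. KRT7 held 161 of 176 CPM in TL-CDK8i cells, so these sums do not describe the list as a whole. Of the few trophoblast markers tested, 2 of 4 were called higher in TL2i, 1 of 4 in TL-CDK8i, and 1 of 3 in each of t2iLGöY, LCDM (EPS), and NHSM-v cells, while 1 was called lower in each of t2iLGöY, LCDM (EPS), and 4i/L/b cells and 2 in E-NHSM cells. CGA was at or under the floor in all groups but LCDM (EPS).

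**Figure D5:**
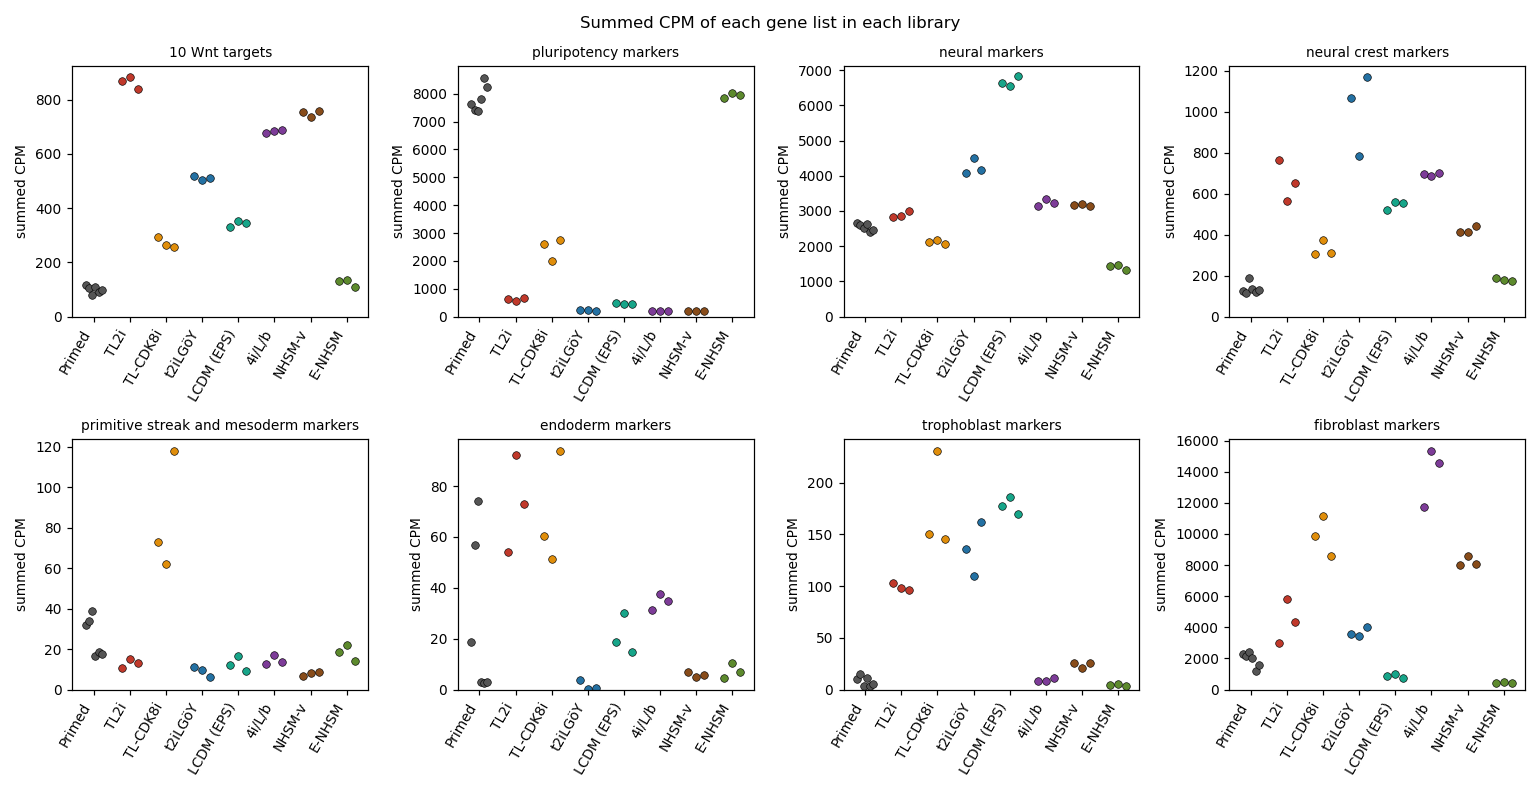
Summed CPM of the 10 Wnt targets and of 7 lists of cell type markers in each library (points), by group on the horizontal axis, with each vertical axis starting at 0. Target sums are 838 to 882 CPM in TL2i and 80.1 to 115 CPM in primed libraries, while pluripotency sums are 571 to 652 CPM in TL2i and 7368 to 8561 CPM in primed libraries.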

How the data were processed

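The authors prepared directional mRNA libraries and sequenced them as single 75 bp reads. They deposited unnormalized counts by gene symbol, with 1 column per library. The submitters' processing notes name bcl2fastq, cutadapt, HISAT2, and HTSeq without versions. The genome build, annotation, and strand setting are not given in the sources used here, so reads of overlapping genes could not be separated further. The columns of the 7 protocols matched single samples. Those of primed cells, lettered J and K, showed the group only, and the labels disagree on the set numbers of some primed libraries, so letters were not assigned to sets. No column of per-sample values was left unused.

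CPM with TMM factors and quasi-likelihood tests came from edgeR 4.0.16 (limma 3.58.1, R 4.3.3). A comparison used only the libraries of its 2 groups, no block, and genes kept by filterByExpr, with Benjamini-Hochberg adjustment over all genes tested and a threshold of 0.05. Standard errors were derived from fold changes and F statistics. The fit was tested on simulated data. Libraries of 1 group differed by more than sampling noise in all 36 pairs (chi-square per gene 4.06 to 30.8), so none was counted as a duplicate. APCDD1, CGB3, and TLE4 were not found by symbol and were not analysed here. Likeness to AXIN2 was computed on group means of log2 CPM (prior count 2).

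The targets and lists were chosen with earlier results of these data known. Named genes were the 10 targets, the 3 highest and 3 lowest medians of each further Wnt list among genes tested in all 7 comparisons, FZD7, which was called one way in all 7, the most abundant marker of each list, and the 10 genes most like AXIN2. POU5F1, NANOG, PRDM14, TDGF1, SOX1, SOX10, and CGA were named after their values were seen. The alternatives were DESeq2 1.42.0, upper-quartile normalization, no filter, a mean CPM of at least 1, each library left out in turn, a joint fit of all 8 groups, primed J or K libraries only, a replicate block for TL-CDK8i against TL2i, other scalings of levels, and other measures of likeness.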

Additional observations from a re-analysis of the deposited data

Results flagged for a closer look

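In the primed group, 1 library stood above the other 5 on log2 CPM for 3 of the 10 targets, all at low counts. For LEF1, Primed K3 was the highest, with 10 counts against 0 in the others, and for NOTUM, Primed J1, with 8 counts against 0. With all other libraries at 0, the gap to the next library is the whole range (a share of 1) whatever the count, so these values carry no weight as a test. For SP5, Primed J2 was the highest with 13 counts against 0 or 1, a gap of 0.716 of the range, and counts this low do not meet the assumptions behind the critical value for such gaps. The results for these genes without the library concerned are given beside their values.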

How the results depend on the processing

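The directions of AXIN2, NKD1, and LEF1 held under all settings. Calls near the threshold, mainly of TCF7, LGR5, ZNRF3, DKK1, and SP5, depended on single libraries, the choice of primed libraries, or the fit. For the 7 comparisons with primed cells, no paired analysis was possible because the primed columns carry no label numbers. The replicate numbers of TL2i and TL-CDK8i showed no pairing in the data (r = -0.127, -0.0135, and -0.00855 for the 3 numbers). With a replicate block, the number of genes called, TL-CDK8i against TL2i, was 8420, and 8906 without, and no call of a target changed.

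With all 8 groups in one fit, 1 target was called lower in each of TL2i, t2iLGöY, 4i/L/b, and E-NHSM cells, and in E-NHSM cells 5255 genes (3486 in the separate fit) and 3 targets (1) were called, the latter higher. With K primed libraries only, 1 target was called lower in each of TL2i, t2iLGöY, 4i/L/b, and NHSM-v cells, and 3 were called higher in E-NHSM cells. With J primed libraries only, 0 were called lower in LCDM (EPS) cells. Leaving out 1 library gave 0 to 1 targets called lower in TL2i, TL-CDK8i, t2iLGöY, LCDM (EPS), and 4i/L/b cells. Targets called higher then ranged from 8 to 9 in TL2i, 4 to 6 in t2iLGöY, 5 to 7 in LCDM (EPS), and 7 to 9 in NHSM-v cells, and stayed at 6 in TL-CDK8i, 9 in 4i/L/b, and 1 in E-NHSM cells.

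Signs turned only for values not called. RNF43 in t2iLGöY cells was -0.44 with J primed libraries and -0.20 to 0.44 with 1 library left out. TCF7 with J primed libraries was 0.23 in NHSM-v and 0.43 in E-NHSM cells. In E-NHSM cells TCF7 was 0.00365 with DESeq2, 0.0694 with upper-quartile normalization, 0.00161 without a filter, and -0.17 to 0.12 with 1 library left out. ZNRF3 in E-NHSM cells was -0.00354 with J primed libraries. In TL-CDK8i against TL2i cells with 1 library left out, LGR5 ranged from -0.66 to 0.047 and DKK1 from -0.24 to 0.33.

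Of the 10 genes most like AXIN2, 3 were shared with the list by Spearman's rho, 3 with that over 27 libraries, and 8 with that at a prior count of 0.5. With total-count in place of TMM scaling, the median of all genes moved from 0.06 to 0.18 in TL2i, from -0.01 to 0.15 in t2iLGöY, from -0.01 to 0.14 in LCDM (EPS), and from -0.02 to -0.15 in TL-CDK8i against TL2i cells.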
